A study of Bos taurus with 18 samples.

Results

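The comparison described here set 3 pools of bovine blastocysts whose oocytes had been matured with a negative control (NC) inhibitor against the 4 control pools, so that it covered 7 of the 18 pools sequenced. Its members were chosen by the sample labels alone. The oocytes came from small follicles (2 to 4 mm), spent 22 h in maturation medium and were fertilized, and at 8 days post-insemination (dpi) 10 embryos of one treatment made up each pool. The control group is labelled as untreated, and by the study's methods its maturation medium received RNase-free water in the volume used for the oligonucleotides. By the same methods the NC inhibitor was added to the maturation medium. The labels do not give the sex, parents or collection day of the pooled embryos. Control replicate 1 stood apart from the other control pools, and the test against control and the genes named from it are therefore given with it (3 against 4 pools) and without it (3 against 3 pools). The distribution over abundance was computed without it, and the comparisons with NC mimic and miR-34c inhibitor come from the fit of all 18 pools. The NC mimic pools (n = 3), the miR-34c inhibitor pools (n = 3) and the miR-34c mimic pools (n = 5) served for comparison.

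A microRNA inhibitor is a single RNA strand that pairs with a mature microRNA and keeps it from its targets. An NC inhibitor is a strand that is not meant to pair with a microRNA, and it is used to separate the effect of the intended sequence from that of adding an oligonucleotide. A blastocyst consists of an outer trophectoderm, the precursor of the placenta, and an inner cell mass that forms the embryo proper and the hypoblast. The transcripts measured at this stage are made mostly by the embryo itself, days after the oocyte was exposed. The count table names genes by Ensembl identifier only, and 0 of its 27270 identifiers could be paired with a symbol, so the blastocyst label was not checked against marker genes and the roles of the genes named below are not given.

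Total counts lay between 2404575 and 3623194 in the 7 pools, and between 14045 and 15429 genes had at least 1 count. A count of 0 allows up to 3 counts, which is 0.756 to 1.34 CPM in these pools (CPM are counts scaled to a library of 1000000), for counting error only. Several library measures moved with the difference described below. The factor of the trimmed mean of M values (TMM), which corrects for differences in library composition, was 1.09 to 1.1 in the NC inhibitor pools, 1.08 in control replicate 1 and 0.912 to 0.935 in control replicates 2 to 4. The 10 most abundant genes took 10.6% to 13.2% of the counts with NC inhibitor, 13.02% in control replicate 1 and 8.92% to 9.81% in the other control pools. Between 14819 and 15429 genes were detected with NC inhibitor, 15322 in control replicate 1 and 14045 to 14567 in control replicates 2 to 4. The part of these measures in the result was not tested.

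Over the 11082 genes tested, the NC inhibitor pools lay nearer to each other and to control replicate 1 than to control replicates 2 to 4. The measure was the median over genes of the absolute difference in log2 CPM between 2 pools. It was 0.19 to 0.25 among the 3 NC inhibitor pools and 0.27 to 0.29 among control replicates 2 to 4. Between these sets of pools it was 0.54 to 0.64 in all 9 pairs. Control replicate 1 differed from the NC inhibitor pools by 0.27 to 0.37 and from its own group by 0.57 to 0.64. Its nearest pools within this comparison were therefore those of the other treatment. The NC mimic pools lay at 0.29 to 0.47 from the NC inhibitor pools. Single pools of the other treatments were as near to them as control replicate 1 or nearer, with 0.24 to 0.26 for miR-34c mimic replicate 2, 0.27 to 0.29 for miR-34c inhibitor replicate 3 and 0.31 to 0.34 for miR-34c inhibitor replicate 1. The remaining miR-34c mimic pools lay at 0.47 to 0.66 and miR-34c inhibitor replicate 2 at 0.66 to 0.68.

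**Figure D1:**
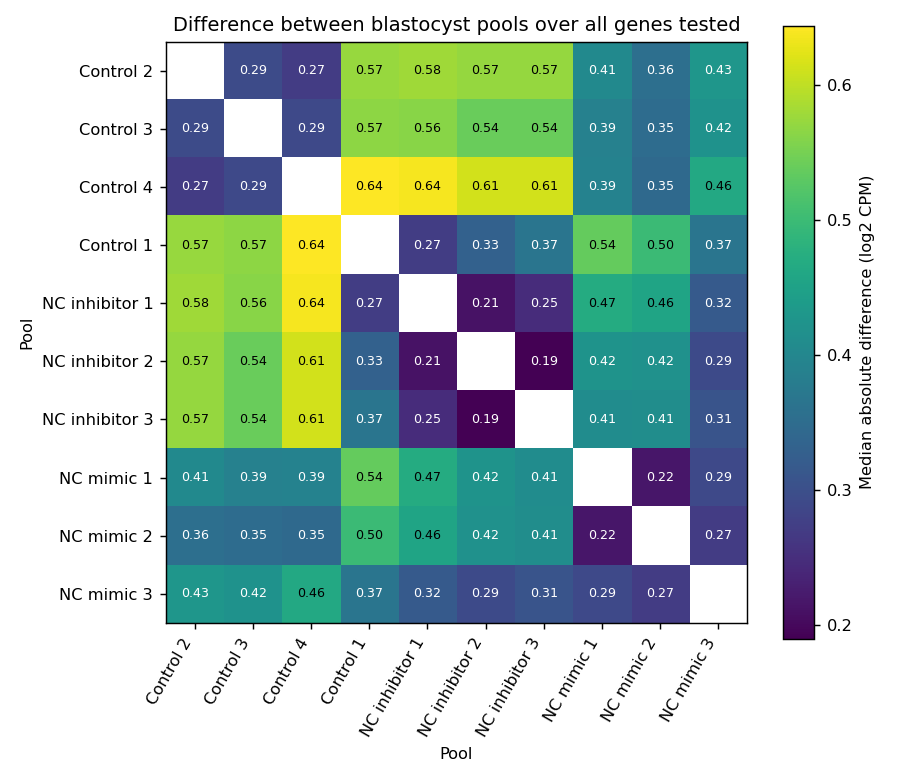
Each square gives the median absolute difference in log2 CPM between 2 pools over 11082 genes, for the control, NC inhibitor and NC mimic pools (darker is more alike). Control 1 lies at 0.27 to 0.37 from the NC inhibitor pools and at 0.57 to 0.64 from control 2 to 4.

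With all 4 control pools, no gene was differentially expressed (DE), defined as a Benjamini-Hochberg adjusted p below 0.05 and a change of 2-fold or more in either direction. The edgeR quasi-likelihood test called 0 of 11082 genes (0%), with a smallest adjusted p of 0.0878. At an unadjusted p under 0.05 it counted 2955 genes (26.7%), of which 1068 (9.64%) were higher and 1887 (17%) lower with NC inhibitor. This number was 4415 without control replicate 1 and 1931 without NC inhibitor replicate 2. Of the same 11082 genes, DESeq2 called 572 and limma voom with sample quality weights 2124. The fitted differences were moderate, with a median absolute log2 fold change of 0.43 and a median log2 fold change of 0.0051 over all genes. A change of 2-fold or more was fitted for 1501 genes (13.5%), 520 higher and 981 lower, and 1383 of these were below 4-fold. The 3 NC inhibitor pools did not overlap the 4 control pools in 2680 genes (24.2%), 1401 higher (12.6%) and 1279 lower (11.5%). With only these 7 pools in the fit edgeR called 591 of 10611 genes, and 0 once any pool other than control replicate 1 was left out as well.

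Among the genes with no overlap in the 7 pools, those with the smallest unadjusted p in each direction are given here. None of these 4 genes passed the adjusted threshold with all 4 control pools. ENSBTAG00000008389 had 5.36, 4.54 and 3.93 CPM in NC inhibitor replicates 1, 2 and 3. It had 0.303 CPM (1 count) in control replicate 1 and no count in control replicates 2, 3 and 4. The gene was thus seen at a low level in each NC inhibitor pool and at no more than 1 count in a control pool. In the 11 pools of the other treatments it reached at most 0.358 CPM. It passed the filter on low counts through the NC inhibitor pools alone and so had to be higher there if it was tested at all. Its values are therefore given as a description. The summed counts were 50 in the NC inhibitor and 1 in the control pools.

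ENSBTAG00000018312 had 18.4, 32.8 and 44.0 CPM with NC inhibitor, against 5.76, 8.48, 7.84 and 8.76 CPM in control replicates 1 to 4. Here control replicate 1 was the lowest pool of its group, and the groups did not overlap (log2 fold change 2.04 ± 0.38 (SE), adjusted p = 0.106). Without control replicate 1 the log2 fold change was 1.91 ± 0.42 (adjusted p = 0.0212). The NC mimic pools had 22.1 to 31.2 CPM, within the range of the NC inhibitor pools, and the adjusted p of NC inhibitor against NC mimic was 0.704.

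Of the genes that were lower, ENSBTAG00000003989 had 7.66, 9.07 and 7.15 CPM with NC inhibitor and 18.2, 40.6, 24.0 and 37.1 CPM in the control (log2 fold change -1.90 ± 0.35, adjusted p = 0.106). Without control replicate 1 its log2 fold change was -2.07 ± 0.34 (adjusted p = 0.0212). In the other 11 pools it lay between 9.97 and 43.1 CPM, so that the NC inhibitor pools were the lowest of all 18. ENSBTAG00000049367 had 1.28, 2.02 and 1.43 CPM with NC inhibitor and 4.85, 10.3, 22.2 and 22.6 CPM in the control (log2 fold change -3.20 ± 0.60, adjusted p = 0.106). The NC inhibitor values of this gene were 5, 8 and 4 counts, close to the level of 3 counts. Its log2 fold change without control replicate 1 was -3.50 ± 0.53 (adjusted p = 0.0195). It lay between 3.89 and 30.1 CPM in the other 11 pools. For both genes control replicate 1 was the control pool nearest to the NC inhibitor. Their adjusted p against NC mimic was 0.367 and 0.462.

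**Figure D2:**
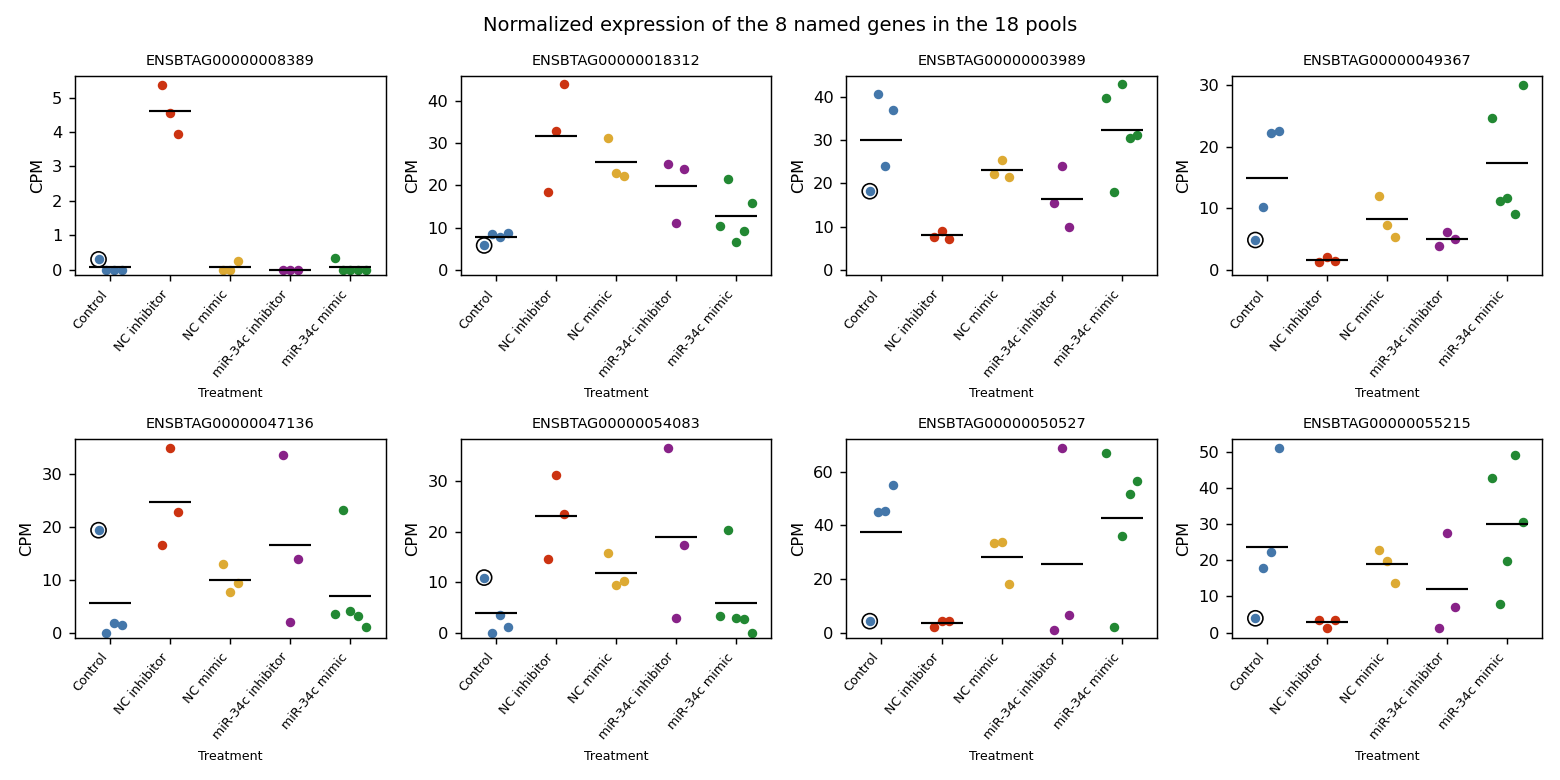
Normalized CPM of 8 genes in each pool, by treatment, on linear axes with the mean as a bar. The ringed point is control replicate 1, which in the 4 genes named without it had 19.4, 10.9, 4.24 and 3.94 CPM, apart from the other control pools.

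Without control replicate 1, 1556 of 10968 genes were DE (14.2%), 534 higher (4.87%) and 1022 lower (9.32%) with NC inhibitor. Control replicate 1 was set aside because of its expression values, which brought it near the NC inhibitor pools, so the adjusted p-values of this comparison depend on a choice made from the measured outcome. Leaving out any other of the 7 pools in its place gave 0 DE genes. An unadjusted p under 0.05 was found for 4415 genes (40.3%), 2009 higher (18.3%) and 2406 lower (21.9%), and a change of 2-fold or more was fitted for 2466 (22.5%). The median absolute log2 fold change over all genes was 0.55, and the median log2 fold change was 0.046. The median log2 fold change was 1.41 over the 534 higher genes and -1.36 over the 1022 lower genes. With all 4 control pools the same genes had medians of 1.02 and -1.13. Most of the called changes were of 2- to 4-fold, with 447 of the higher and 911 of the lower genes in that range. A change of more than 8-fold was fitted for 23 of the higher and 13 of the lower genes. The excess of lower genes depended on the scaling: with upper-quartile factors 757 genes were higher and 792 lower, and the median log2 fold change over all genes was 0.14. The groups did not overlap in 6072 genes (55.4%), 3061 higher (27.9%) and 3011 lower (27.5%).

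The number of calls differed widely between fits. With the replicate number as a term, 0 genes were DE in place of 1556. With all treatments in the fit, 0 or 1 gene was DE when any one of the 6 pools was left out, each of control replicates 2, 3 and 4 and NC inhibitor replicates 1, 2 and 3 in turn. An unadjusted p under 0.05 was then found for 3339 to 4033 genes. For ENSBTAG00000047136, described below, the log2 fold change in these fits was 4.02 to 5.005 and the adjusted p 0.052 to 0.0775, against 4.50 and 0.0212 with all 6 pools. With only the 2 groups in the fit, 2188 of 10341 genes were DE. Between 2003 of 10446 and 2509 of 10861 were DE when each of these pools was left out, an alternative chosen after seeing the data. The biological coefficient of variation, the spread between replicate pools relative to the mean and beyond counting error, was 0.138 in these 6 pools, 0.252 in the 7 pools with control replicate 1, and 0.264 over all 17 pools.

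**Figure D3:**
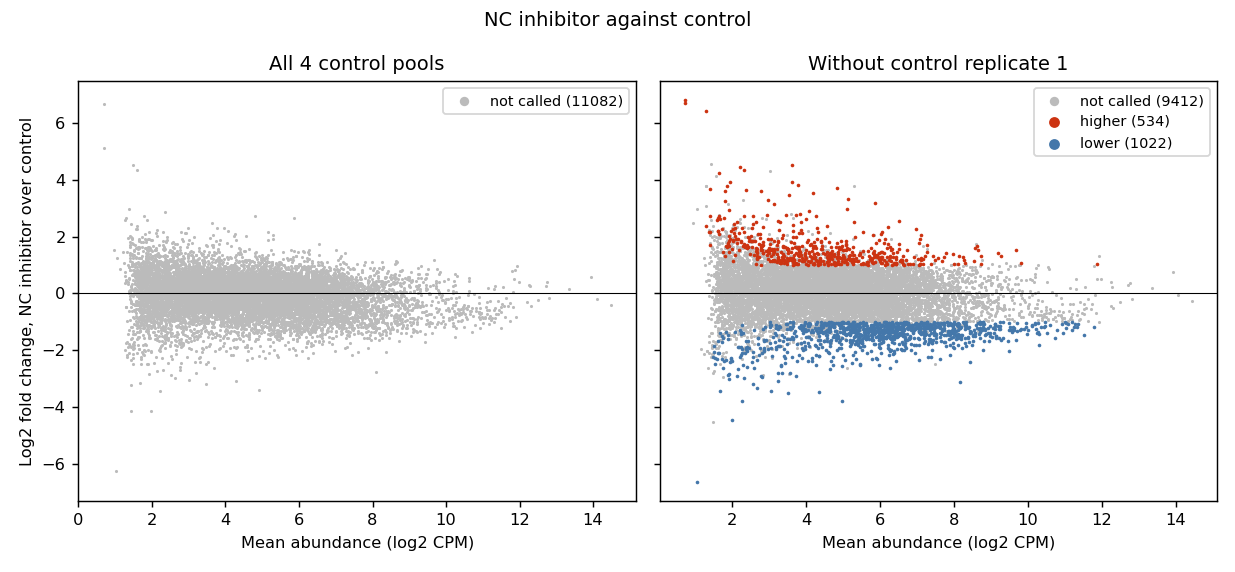
Log2 fold change of NC inhibitor over control against mean abundance in log2 CPM, 1 point per gene, with all 4 control pools on the left and without control replicate 1 on the right. On the left 0 of 11082 genes are DE, and on the right 534 are higher (red) and 1022 lower (blue), the lower ones reaching further into the abundant genes.

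The lower genes were more abundant than the higher ones. Their median abundance was 6.06 on the log2 CPM scale, against 4.21 for the higher genes and 4.66 for all genes tested. In the most abundant of 4 equal groups of genes, with a median of 129.5 CPM, 526 of 2742 were lower (19.2%) and 98 higher (3.57%). In the least abundant group, with a median of 5.35 CPM, 102 were lower (3.72%) and 151 higher (5.51%). The median log2 fold change over all genes of a group went from 0.17 in the least abundant to -0.23 in the most abundant. Genes called in either direction made up 9.23% of the least and 22.8% of the most abundant group. These values were computed with TMM factors only.

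**Figure D4:**
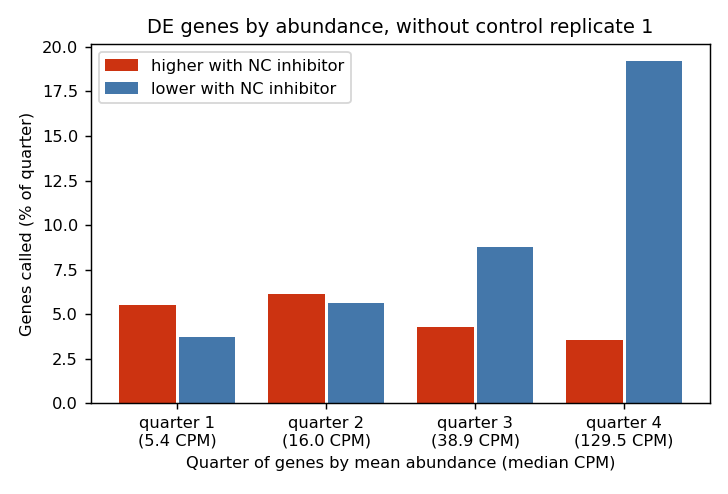
Share of genes called DE without control replicate 1, higher (red) and lower (blue) with NC inhibitor, in 4 equal groups of genes by mean abundance. Lower genes make up 3.72% of the least and 19.2% of the most abundant group, while higher genes make up between 3.57% and 6.13%.

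The following genes had the largest changes among the DE genes that did not overlap and had at least 20 CPM in one group, 315 higher and 869 lower. ENSBTAG00000047136 rose from 0, 1.74 and 1.35 CPM in control replicates 2, 3 and 4 to 16.6, 35.03 and 22.9 CPM with NC inhibitor. The means were 1.03 ± 0.914 (SD, n = 3) and 24.8 ± 9.37 (SD, n = 3), and the log2 fold change was 4.50 ± 1.07 (adjusted p = 0.0212). Control replicate 1 had 19.4 CPM, inside the range of the NC inhibitor pools. With it the log2 fold change was 2.04 ± 0.94 (adjusted p = 0.175).

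ENSBTAG00000054083 rose from 0, 3.48 and 1.011 CPM to 14.6, 31.3 and 23.6 CPM (log2 fold change 3.93 ± 1.09, adjusted p = 0.025), and control replicate 1 had 10.9 CPM. With control replicate 1 its log2 fold change was 2.49 ± 0.92 (adjusted p = 0.119). In both genes miR-34c inhibitor replicate 1 was above the NC inhibitor mean, at 33.7 and 36.7 CPM, and miR-34c mimic replicate 2 was close to it, at 23.1 and 20.4 CPM. The NC mimic pools had 12.9, 7.61 and 9.45 CPM of ENSBTAG00000047136 and 15.8, 9.43 and 10.3 CPM of ENSBTAG00000054083. All of these lay above control replicates 2 to 4. The medians of the miR-34c mimic pools were 3.58 and 2.92 CPM, and miR-34c inhibitor replicate 2 had 2.03 and 2.84 CPM. Raised values were thus also found in the NC mimic pools and in single pools of other treatments.

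In the other direction, ENSBTAG00000050527 fell from 45.1, 45.3 and 54.9 CPM in control replicates 2, 3 and 4 to 2.04, 4.28 and 4.29 CPM with NC inhibitor (log2 fold change -3.78 ± 1.06, adjusted p = 0.0257). Control replicate 1 had 4.24 CPM, and with it the log2 fold change was -3.39 ± 1.13 (adjusted p = 0.108). ENSBTAG00000055215 fell from 17.9, 22.2 and 51.2 CPM to 3.57, 1.26 and 3.58 CPM (log2 fold change -3.46 ± 0.80, adjusted p = 0.0212). Control replicate 1 had 3.94 CPM, and with it the log2 fold change was -3.09 ± 0.88 (adjusted p = 0.108). In each of these 4 genes the value of control replicate 1 lay outside the range of control replicates 2 to 4, on the side of the NC inhibitor pools. None of the 4 passed the adjusted threshold against NC mimic or miR-34c inhibitor, with adjusted p from 0.462 to 0.951.

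The 1556 genes were then used to place all 18 pools. Control replicate 1 did not enter the fit that gave these genes, but it was left out because its values lay near the NC inhibitor pools. Its position is therefore not an independent check. The 11 pools of the other treatments entered the fit, and with it the filter and the estimate of the spread, but not the contrast. For each gene the mean of control replicates 2 to 4 was set to 0 and the mean of the NC inhibitor pools to 1, on the log2 CPM scale, and a pool's position was its median over the genes, given as a description without a test. Control replicate 1 had a position of 0.896 and was nearer to the NC inhibitor mean in 1359 of the 1556 genes (87.3%). Its CPM lay inside the range of the NC inhibitor pools alone in 477 genes, between both ranges in 689 and beyond the NC inhibitor pools in 309. It lay inside the range of control replicates 2 to 4 alone in 65.

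Pools of the other treatments were spread along the same axis. The positions of miR-34c inhibitor replicates 1, 2 and 3 were 1.16, 0.0068 and 0.69, so that this group reached from one end to the other. In the miR-34c mimic group replicate 2 had a position of 0.924, while replicates 1, 3, 4 and 5 had -0.049, 0.245, 0.133 and 0.0704. The NC mimic pools were intermediate, at 0.435, 0.372 and 0.574. They lay further along for the genes that were higher, at 0.61, 0.546 and 0.736, than for those that were lower, at 0.386, 0.303 and 0.538. Positions were computed with TMM scaling only, and the part of the scaling in this difference was not tested. Pools of the miR-34c inhibitor group were thus further apart on this axis than the means of control replicates 2 to 4 and NC inhibitor.

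**Figure D5:**
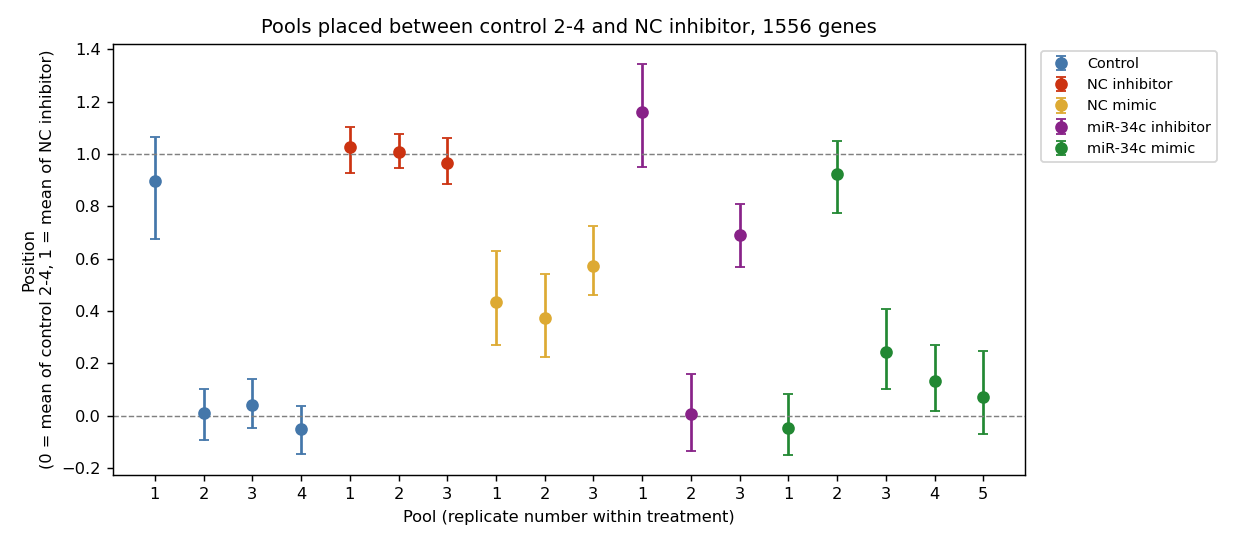
Position of each of the 18 pools between the mean of control replicates 2 to 4 (0) and the mean of the NC inhibitor pools (1), as the median over 1556 DE genes with bars from the lower to the upper quartile. miR-34c inhibitor 1 (1.16), miR-34c mimic 2 (0.924) and control 1 (0.896) lie at the NC inhibitor end, and the NC mimic pools lie between 0.372 and 0.574.

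These genes also made up a sizeable part of each library. The 1022 lower genes took 22.0% to 23.3% of all counts in control replicates 2 to 4 and 10.4% to 11.5% with NC inhibitor, as chosen. In control replicate 1, which was left out of the choice because it lay near the NC inhibitor pools, they took 11.4%. That share is therefore no independent check. The 534 higher genes took 1.34% to 1.62% and 4.25% to 4.47% in the same groups, and 3.65% in control replicate 1. In pooled embryos, fewer cells of one type and less RNA per cell cannot be told apart.

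Finally, NC inhibitor was set directly against NC mimic and miR-34c inhibitor, which tests whether its difference from the shared control is larger or smaller than theirs. Against NC mimic edgeR called 0 of 11082 genes (0%), with 1174 (10.6%) at an unadjusted p under 0.05, 402 higher (3.63%) and 772 lower (6.97%). In place of 1174 there were 562 and 672 without NC inhibitor replicates 1 and 2, and 569 and 591 without NC mimic replicates 1 and 2. A change of 2-fold or more was fitted for 781 genes (7.05%). DESeq2 called 13 and limma voom 786 of the 11082 genes. With only these 2 groups in the fit edgeR called 566 of 10615, 147 higher and 419 lower. Against miR-34c inhibitor edgeR called 0 genes (0%), with 450 (4.06%) at an unadjusted p under 0.05, 115 higher (1.04%) and 335 lower (3.02%). In place of 450 there were 1907, 167 and 720 without miR-34c inhibitor replicates 1, 2 and 3, and 265, 233 and 269 without NC inhibitor replicates 1, 2 and 3. A change of 2-fold or more was fitted for 444 genes (4.01%), and DESeq2 called 0 and limma voom 154 of the same 11082 genes. The median absolute log2 fold change was 0.35 against NC mimic and 0.26 against miR-34c inhibitor. The NC inhibitor pools lay outside the range of all other 15 pools in 126 of 11082 genes (1.14%), 49 above (0.442%) and 77 below (0.695%), among the latter ENSBTAG00000003989 and ENSBTAG00000049367. Genes that reached the filter on low counts through the NC inhibitor pools alone, such as ENSBTAG00000008389, had to lie above the others.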

How the data were processed

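Libraries of mRNA 5′ ends were made from 18 pools by a modified Smart-seq3xpress protocol. The values, as the authors deposited them, are estimated counts for each Ensembl gene, whole and not normalized. The submitters' processing notes name RSEM 1.3.3, STAR 2.7.10a, UMI-tools 1.1.4, cutadapt 3.7, FastQC 0.11.9 and the build ARS-UCD1.2. The annotation release and the use of strand for these libraries are not given in the sources used here, so counts of overlapping genes and of close copies are uncertain. The study's methods name an Ensembl release only for the small RNA data. Of 27270 genes, 7840 had no count in any of the 18 libraries.

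Counts were analysed in R 4.3.3 with edgeR 4.0.16 (quasi-likelihood F test, TMM, filterByExpr by treatment, treatment as the only term, all pools in one fit). SE values were derived from the fold change and its F statistic. CPM values are per 1000000 counts of the tested genes, scaled by TMM over the 18 pools, and log2 CPM used a prior count of 2. DESeq2 1.42.0, limma 3.58.1 and other normalizations, filters and sample sets were alternatives. The scripts were tested on simulated data. The 2 genes per direction with the smallest unadjusted p and no overlap (all 4 control pools), or with the largest fold change among non-overlapping DE genes of at least 20 CPM (without control replicate 1), were named. The comparison, the lists and this rule were chosen with earlier results of these data known.

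No gene identifier was paired with a symbol in the RefSeq gene table (0 of 37063 rows carry an Ensembl identifier), so the planned lists (blastocyst lineages and other cell types, cell cycle, apoptosis, interferon, stress, metabolism, microRNA machinery and others) were not analysed here. All 9 pairs of pools within the 2 groups differed by more than sampling noise (chi-square per degree of freedom 2.31 to 47.0) and each pool counted as 1 replicate. The labels do not state whether pools came from separate rounds of embryo production, and p-values measure only the spread between these pools.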

Additional observations from a re-analysis of the deposited data

Results flagged for a closer look

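Within the 4 control pools, 15 measures were checked for a pool set apart from the other 3, by the gap to the nearest pool divided by the range of the group. Dixon's 95% critical value for 4 samples, which about 1 in 20 groups exceeds by chance, was exceeded by 6, all through control replicate 1. For 5 of the 6 the outcome was largely fixed by the way the measure was made, so their number is not to be read against that chance rate. The TMM normalization factor had a ratio of 0.861, with 1.08 in this pool and 0.912 to 0.935 in the others. ENSBTAG00000008389 had a ratio of 1, which follows from 1 count in this pool and no count in the others. The other 4 measures come from genes chosen without control replicate 1, so the choice itself favours a gap. They were the CPM of ENSBTAG00000047136 (ratio 0.91), the median position between the groups (ratio 0.903), and the share of counts taken by the higher genes (ratio 0.878) and by the lower genes (ratio 0.893).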

How the results depend on the processing

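With all 4 control pools, the number of DE genes was 0 with median-of-ratios or upper-quartile factors, when each library had to reach 10 counts, and by the adjusted p alone. It was 5 without a filter, 591 with only the 2 groups in the fit, 572 with DESeq2 and 2124 with limma voom. Leaving out 1 pool gave 0 to 1556, and 1556 came from leaving out control replicate 1. Without that pool the 1556 genes became 1578 with median-of-ratios factors, 1549 with upper-quartile factors, 1268 with a minimum of 10 counts, 1837 without a filter, 1831 with DESeq2, 2341 by the adjusted p alone and 2392 with limma voom. Leaving out a further pool gave 0 to 1 with all treatments in the fit and 2003 to 2509 with the 2 groups alone (2345 without control replicate 2). Against NC mimic the count of 0 became 1 with upper-quartile factors, 1 with a minimum of 10 counts, 566 with the 2 groups alone, 13 with DESeq2 and 786 with limma voom. Against miR-34c inhibitor it became 154 with limma voom. Where a setting removes pools or genes, the fit holds fewer of them; otherwise the cause was not tested. The position of control replicate 1 was 0.889 on the 2188 genes called with the 2 groups alone and 0.896 with a prior count of 0.5. Among 109 values of the 8 named genes under these alternatives, none changed direction, 62 kept their side of the adjusted threshold, 19 passed it only in the alternative and 28 lost it. DESeq2 gave no adjusted p for 1 further value, that of ENSBTAG00000008389.

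The replicate block, with the replicate number as a term, gave 0 DE genes with all 4 control pools and 0 in place of 1556 without control replicate 1. The labels name no shared batch. Same-numbered NC inhibitor and control pools deviated from their group means with correlations across genes of 0.212, -0.0198 and 0.0916. The control mean included control replicate 1, which stood apart, so these correlations cannot decide whether the numbers pair the pools. The alternatives planned for the gene lists were not run, since no identifier had a symbol.

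Depth limits genes near the level of 3 counts, which was 0.756 to 1.34 CPM in these pools.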
